A study of Mus musculus with 2 samples.

Results

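The genes described here are 34 genes of the smooth muscle contractile and cytoskeletal apparatus. They were chosen by name, as the rows of the deposited tables whose Ensembl mouse identifier maps to the listed symbols, and all 34 were found among 55573 listed genes. The data were 2 RNA-seq libraries of mesenteric artery from wild-type C57BL/6 mice that were 10 weeks old. One library came from arteries in 5 mM K+ (control) and the other from arteries in 60 mM K+ (depolarized). The labels give 60 min for both libraries, and each library was made from the tissue of 2 mice. The study sequenced these arteries to find genes that follow sustained depolarization of the artery wall. The arteries came from a perfused arterial bed, and the methods state that tetrodotoxin, a blocker of nerve sodium channels, was in all solutions. In the supplementary methods, control tissue was the distal part of ligated arteries, taken before the rest was perfused with 60 mM K+. The place along the artery and the time in solution therefore cannot be told apart from K+ if the sequenced arteries were handled in that way. With 1 library a condition there is no replicate check, so no p-value is given and every interval below covers counting error only.

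Smooth muscle shortens when myosin filaments pull on actin filaments. Ca2+ that enters during depolarization binds calmodulin, which switches on myosin light-chain kinase, and the kinase phosphorylates the regulatory light chain of myosin. Myosin phosphatase reverses this step, and when the phosphatase is inhibited, force at a given Ca2+ is higher. Actin filaments end at dense plaques and dense bodies, where linker proteins tie them to integrins and to desmin and vimentin filaments. Serum response factor (SRF) and its partner myocardin drive many of these genes by binding a short A/T-rich element, the CArG box.

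Gene counts summed to 10480918 reads for control arteries and 11289598 reads for depolarized arteries. The 34 genes took 10.03% of the control reads (95% Clopper-Pearson interval 10.01% to 10.05%) and 9.61% of the depolarized reads (9.60% to 9.63%). They included 6 of the 12 genes with the most reads in either library, and the gene with the fewest had 701 reads over both libraries together. Myh11, Acta2, Cnn1, Lmod1 and Smtn, fixed as markers of smooth muscle cells, had 379544 control and 385441 depolarized reads, so the markers that define the labelled tissue were present at high levels. Fewer smooth muscle cells and less RNA per cell cannot be told apart in such whole-artery libraries.

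Levels between genes are compared as deposited FPKM, which are reads scaled to gene length and to the reads of the library. Changes are log2(fold-change) of the 60 mM K+ over the 5 mM K+ reads after TMM scaling (trimmed mean of M-values), each with a 95% Clopper-Pearson counting interval. The FPKM were scaled by total reads, and total-read scaling lowers every log2(fold-change) by 0.21. For that reason a gene can have a lower FPKM in the depolarized library and a log2(fold-change) above 0. Comparisons ran over 14829 genes whose reads over both libraries summed to 10 or more, with a median log2(fold-change) of -0.0047.

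Of the 34 genes, 0 lay above a log2(fold-change) of 1, the limit used in the study, compared with 5.54% of all genes tested, and 0 lay below -1, compared with 5.86%. Above 0.5, a 1.41-fold increase, were 2 genes, Vim and Tpm4, and the share among all genes tested was 14.8%. Below -0.5 were Vcl and Myocd, against 15.9% of all genes. Since low counts scatter widely, the shares were also taken for the 6549 genes that had 500 reads or more, as all 34 genes did. They were then 12.4% above 0.5 and 3.18% below -0.5, so that the share of the 34 genes, 2 on either side, was under the first and above the second. The counting interval lay above 0 for 21 of the 34 genes and below 0 for 10. Among all genes tested these shares were 25.0% and 20.3%, and among genes with at least 500 reads they were 41.4% and 21.4%. A counting interval narrows as reads increase, and neither set of genes was matched to the reads of the 34 genes. The counts of intervals that leave out 0 therefore depend on depth as well as on change. The median of the 34 genes was 0.094, beside 0.082 for genes with at least 500 reads. With total-read scaling it was -0.11, beside -0.13 for those genes, and then 14 of the 34 genes were above 0 (41.2%) instead of 23 (67.6%). Among genes with at least 500 reads 35.1% were above 0 with total reads and 59.4% with TMM. With total reads 9 genes changed sign, among them Acta2, Tpm1, Myh11, Mylk, Actn1, Actn4 and Synpo2.

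**Figure D1:**
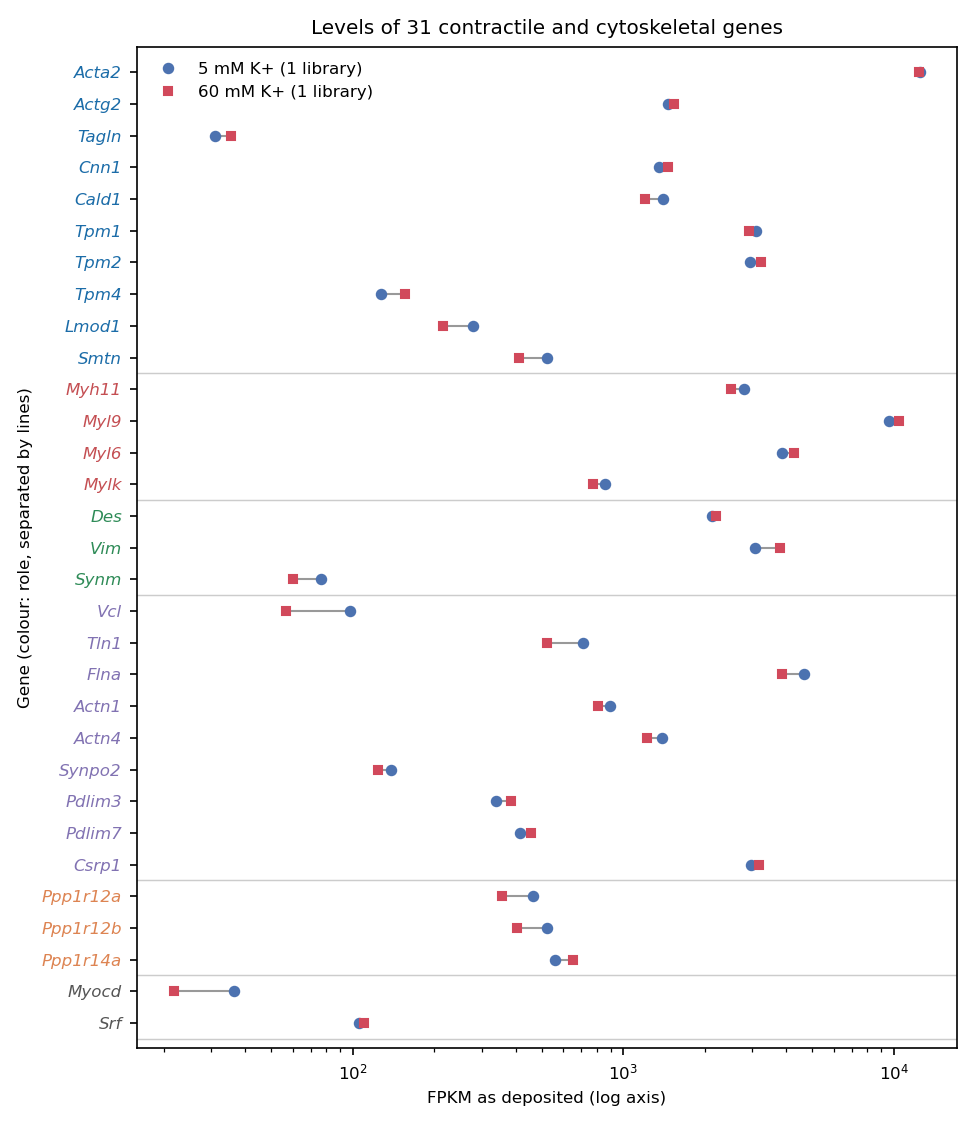
Deposited FPKM (log axis) of 31 of the genes in the control library (circles) and the depolarized library (squares), with 1 library a condition and genes grouped by role. Acta2 and Myl9 had the highest levels in both libraries, and Tagln and Myocd the lowest.

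**Figure D2:**
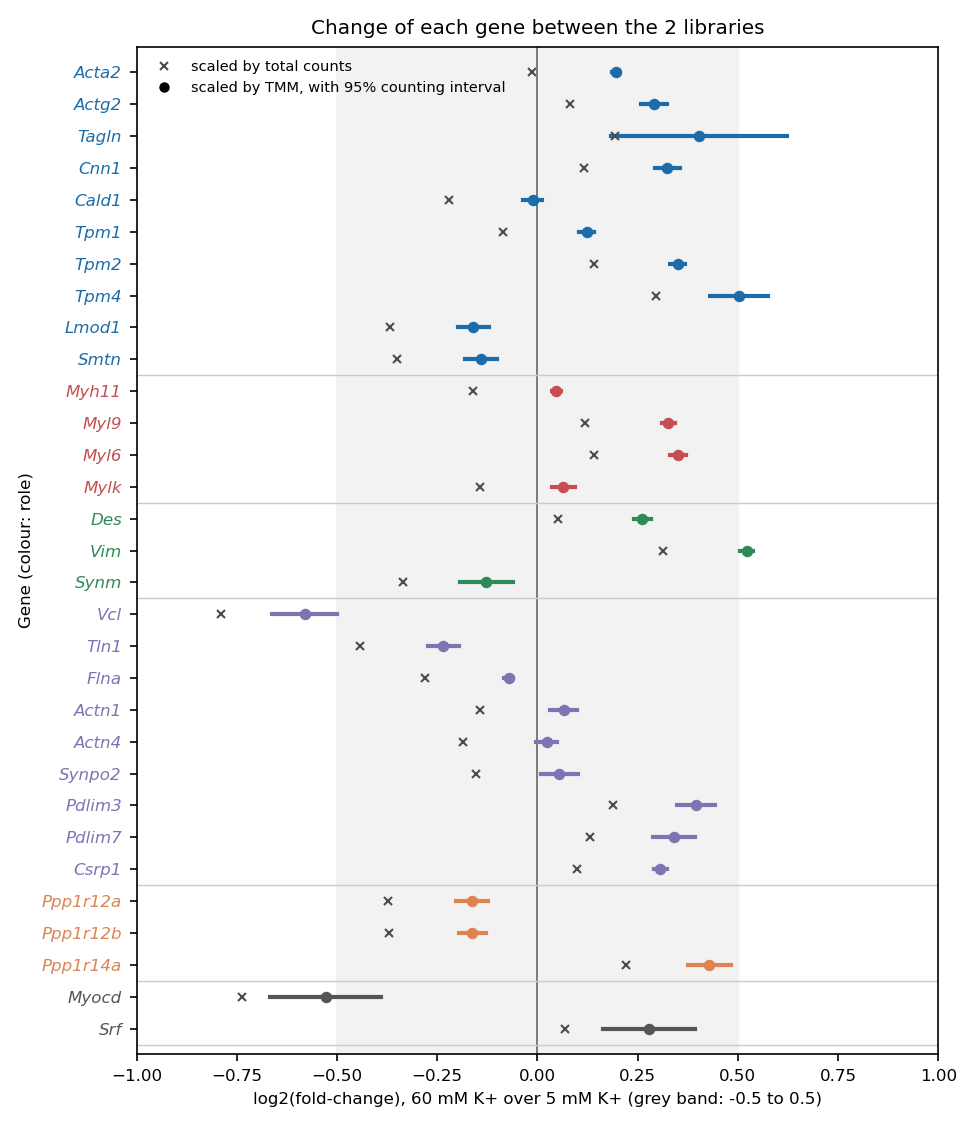
Log2(fold-change) of 31 of the genes, 60 mM K+ over 5 mM K+, with points scaled by TMM, bars giving the 95% counting interval and crosses scaled by total reads. Vim and Tpm4 lie just past 0.5 and Vcl and Myocd below -0.5, and every cross lies 0.21 to the left of its point.

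Among actins and thin filament proteins, 7 of 10 genes were above 0, beside 59.4% of genes with at least 500 reads, and their median log2(fold-change) was 0.24 (0.035 with total reads). Acta2, which encodes smooth muscle alpha-actin, lies on chromosome 19 from 34315580 to 34329826 (mm9). It was the most abundant gene of the control library on both scales, with 187183 reads and 12480 FPKM, and had 199779 reads and 12366 FPKM in the depolarized library. Its log2(fold-change) was 0.20 (0.19 to 0.20), and -0.013 with total reads. Actg2, the gamma-actin of enteric smooth muscle, stood well below it, with an FPKM ratio to Acta2 of 0.117 in control and 0.125 in depolarized arteries. Its reads were 13968 and 15930, a log2(fold-change) of 0.29 (0.26 to 0.32). Actin genes have closely related coding sequences, so how reads were divided among them is uncertain.

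The 3 tropomyosin genes, whose products lie along the actin filament, did not move alike. Tpm1 had 46682 and 47387 reads and Tpm2 had 39573 and 47007 reads, and these are the abundant muscle genes, at 3097 and 2934 FPKM in control arteries. The log2(fold-change) was 0.12 for Tpm1 (-0.086 with total reads) and 0.35 for Tpm2. Tpm4, which encodes a tropomyosin of non-muscle and synthetic cells, was at only 128 FPKM in control and 156 FPKM in depolarized arteries. It had 2697 and 3563 reads and the highest log2(fold-change) of the group, 0.50 (0.43 to 0.58), at percentile 85.3 of all genes tested. Its exons share 6.08% of their bases with Gm17371 in GENCODE vM1.

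Calponin and caldesmon both bind actin and restrain myosin. Cnn1, the calponin gene, had 15558 and 18154 reads, a log2(fold-change) of 0.32 (0.29 to 0.36). Cald1, the caldesmon gene, had 29667 and 27423 reads, a log2(fold-change) of -0.012, and its counting interval held 0. Lmod1, a leiomodin that starts actin filaments, and Smtn, smoothelin of contractile cells, were lower in the depolarized library. Lmod1 had 11571 and 9655 reads, a log2(fold-change) of -0.16 (-0.20 to -0.12), and Smtn had 11191 and 9459 reads, a log2(fold-change) of -0.14 (-0.18 to -0.10). Smtn shares 16.3% of its exon bases with Gm11946 and Gm11947 in GENCODE vM1, which leaves its count uncertain.

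Tagln encodes SM22-alpha, an actin-binding protein that is usually among the most abundant of smooth muscle. Here it had 314 control and 387 depolarized reads, the fewest of the 34 genes in either library, and 31.0 and 35.5 FPKM. By FPKM it ranked 3613 of all genes in the control library, while Cnn1 ranked 44. Its log2(fold-change) was 0.40, with a wide counting interval (0.18 to 0.62). Tagln (chromosome 9, 45737711 to 45744141, mm9) shares 4.10% of its exon bases with Pcsk7 in GENCODE vM1, and the spans of these neighbors also overlap in the RefSeq table of GRCm38.p6. Pcsk7 runs on the opposite strand, and whether the counting used strand is not given in the sources used here. The level of Tagln is therefore uncertain, and the part of this overlap in it was not tested.

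All 4 genes of myosin and its kinase had counting intervals above 0, beside 41.4% of genes with at least 500 reads. Each of the 4 had at least 41397 reads over both libraries, so their intervals were narrow. The median log2(fold-change) was 0.20, but with total reads it was -0.013 and Myh11 and Mylk fell on the other side of 0. Myh11, the smooth muscle myosin heavy chain (chromosome 16, 14194620 to 14291501, mm9), had 154041 and 148394 reads. Its log2(fold-change) was 0.048 (0.037 to 0.058), and -0.16 with total reads. Both light-chain genes were higher in the depolarized library under either scaling. Myl9, the regulatory light chain that the kinase phosphorylates, had 62427 and 72968 reads and the second highest level, 9607 and 10425 FPKM. Its log2(fold-change) was 0.33 (0.31 to 0.34). Myl6, the essential light chain, had 34789 and 41340 reads, a log2(fold-change) of 0.35 (0.33 to 0.37). Mylk, the kinase that answers to Ca2+ and calmodulin, had 20960 and 20437 reads, a log2(fold-change) of 0.065 (-0.14 with total reads).

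The intermediate filament genes differed from each other. Vim encodes vimentin, which is made in smooth muscle cells and also in endothelial cells and fibroblasts, and it had the highest log2(fold-change) of the 34 genes. Its reads were 47896 (control) and 64084 (depolarized), a log2(fold-change) of 0.52 (0.50 to 0.54), at percentile 86.1 of all genes tested, and 0.31 with total reads. Des, the desmin gene, had 34617 and 38669 reads, a log2(fold-change) of 0.26 (0.24 to 0.28). Synm encodes synemin, which joins desmin and vimentin filaments to the membrane, and was lower: the reads were 4044 and 3451 and the log2(fold-change) -0.13 (-0.19 to -0.061).

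The genes of dense plaques, crosslinkers and LIM proteins held the lowest value of all. Vcl encodes vinculin, the linker between actin filaments and the integrin plaque, and lies on chromosome 14 from 21748655 to 21852895 (mm9). Control arteries had 3293 reads and 97.7 FPKM of it, and depolarized arteries 2052 reads and 56.5 FPKM. The log2(fold-change) was -0.58 (-0.66 to -0.50), a 0.669-fold level, at percentile 13.2 of all genes tested, and -0.79 with total reads. In GENCODE vM1, 39.9% of the exon bases of Vcl are shared with Ap3m1, so the count of Vcl is uncertain.

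Tln1, which encodes talin, the partner of vinculin at integrins, was also lower: the reads were 12383 and 9812 and the log2(fold-change) -0.23 (-0.27 to -0.20). Flna, filamin A, which crosslinks actin filaments, had the second most reads of all genes in control, 158923, and 140920 in the depolarized library. Its log2(fold-change) was -0.072 (-0.082 to -0.062). The alpha-actinin genes stood close to 0: Actn1 had 14326 and 13977 reads (log2(fold-change) 0.066), and Actn4 had 24276 and 22995 reads (log2(fold-change) 0.023), with a counting interval that held 0. Both were below 0 with total reads, at -0.14 and -0.19. Synpo2, synaptopodin 2 of the dense bodies, had 7642 and 7400 reads, a log2(fold-change) of 0.055 (-0.15 with total reads).

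The LIM-domain genes lay above 0 together, in contrast to Vcl and Tln1, and kept that side with total reads. Pdlim3 had 6521 and 7999 reads, a log2(fold-change) of 0.40 (0.35 to 0.44), and Pdlim7 had 5621 and 6634 reads, a log2(fold-change) of 0.34 (0.29 to 0.39). Csrp1, a cysteine-rich protein on actin bundles of smooth muscle, had 56583 and 65244 reads, a log2(fold-change) of 0.31 (0.29 to 0.32).

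In the pathway that sets Ca2+ sensitivity, the phosphatase inhibitor gene stood above the phosphatase subunit genes. Of the myosin phosphatase targeting subunits, Ppp1r12a and Ppp1r12b had the same value of -0.16. For Ppp1r12a the reads were 10992 and 9150 (-0.20 to -0.12), and for Ppp1r12b they were 15430 and 12848 (-0.20 to -0.13). Ppp1r12c, a related subunit gene outside the 34 genes and named after its value was seen, lay on the other side of 0, with 7416 and 8574 reads and 0.31 (0.27 to 0.36). Ppp1r14a encodes CPI-17, a smooth muscle protein that inhibits myosin phosphatase once phosphorylated. Its 5019 reads and 561 FPKM in control arteries compared with 6299 reads and 654 FPKM after 60 mM K+, a log2(fold-change) of 0.43 (0.38 to 0.48) and of 0.22 with total reads. It was the highest of the 6 genes, whose median was -0.070, -0.28 with total reads and 0.047 once the trend with length was removed.

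Of the transcription control genes, Myocd encodes myocardin and lies on chromosome 11 from 64990063 to 65083491 (mm9). Control arteries had 1089 reads and 36.4 FPKM of it, and depolarized arteries 704 reads and 21.8 FPKM. The log2(fold-change) was -0.53 (-0.67 to -0.39), a 0.694-fold level, at percentile 14.9 of all genes tested, and -0.74 with total reads. Srf had 1164 and 1315 reads, a log2(fold-change) of 0.28 (0.16 to 0.39), and only 0.069 with total reads. Its value was above 0 under either scaling while that of its partner was below 0. The size of the Srf value depended on the scaling.

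Because SRF binds the CArG box, the promoters of the 34 genes were searched for it in the RefSeq windows of GRCm38.p6, from 250 bases before to 50 bases after the annotated start. The element reads the same way on both strands, and 29 of the 34 genes had a window. A full CArG box was found in 4 of them, Myl6, Myl9, Vcl and Srf, which is 13.8%, compared with 1.81% of 27025 genes with a window. With 1 mismatch allowed in the A/T core, 7 genes had one (24.1%), compared with 11.3% of all genes, and Acta2, Pdlim3 and Synm were added. The stretches below are shown because these genes share the element and yet differ in change. CArG boxes are in capitals, and those of Acta2 and the second of Myl9 have a mismatch. Each stretch is written 5′ to 3′ on the strand of the gene, with positions counted from the annotated start.
Srf, chr17:46556195-46556264, minus strand, boxes starting at -82 and -62: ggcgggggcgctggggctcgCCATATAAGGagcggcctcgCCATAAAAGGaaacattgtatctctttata
Vcl, chr14:20929151-20929200, plus strand, box starting at -227: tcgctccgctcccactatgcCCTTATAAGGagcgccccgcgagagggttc
Myl9, chr2:156775283-156775394, plus strand, boxes starting at -161 and -99: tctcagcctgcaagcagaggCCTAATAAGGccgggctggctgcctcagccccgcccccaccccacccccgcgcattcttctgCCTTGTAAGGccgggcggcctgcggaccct
Acta2, chr19:34255378-34255477, minus strand, boxes starting at -84 and -34: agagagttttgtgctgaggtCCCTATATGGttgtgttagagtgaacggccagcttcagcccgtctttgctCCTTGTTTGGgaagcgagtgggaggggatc
The 4 genes with a full box had log2(fold-change) of -0.58 for Vcl, 0.28 for Srf, 0.33 for Myl9 and 0.35 for Myl6, so that they lay on both sides of 0. A match describes the letters in the window, not binding.

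Ratios between 2 genes of the same library do not depend on how the libraries are scaled, and 12 ratios between genes of the same role were taken, chosen after the values were seen. The ratio of Srf to Myocd reads was 1.07 in control and 1.87 in depolarized arteries, a 1.75-fold change (log2 0.81, counting interval 0.63 to 0.98, and 0.60 once the length trend was removed). Reads of the CPI-17 gene Ppp1r14a per read of the phosphatase targeting subunit gene Ppp1r12a went from 0.457 to 0.688. That was a 1.51-fold change (log2 0.59, 0.53 to 0.66), and the log2 change was 0.38 with the length trend removed. The tropomyosin ratio of Tpm4 to Tpm1 had a log2 change of 0.38 (0.31 to 0.45), and Vim over Des of 0.26 (0.23 to 0.29). Vcl over Tln1 moved the other way, by -0.35 (-0.43 to -0.26). Pdlim3 over Vcl had the largest log2 change, 0.98 (0.88 to 1.07), and joins the highest and the lowest gene of the dense plaque group, so it is large by choice. The phosphatase subunits Ppp1r12a and Ppp1r12b kept a ratio of 0.712 in both libraries, with an interval for its log2 change from -0.053 to 0.052.

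**Figure D3:**
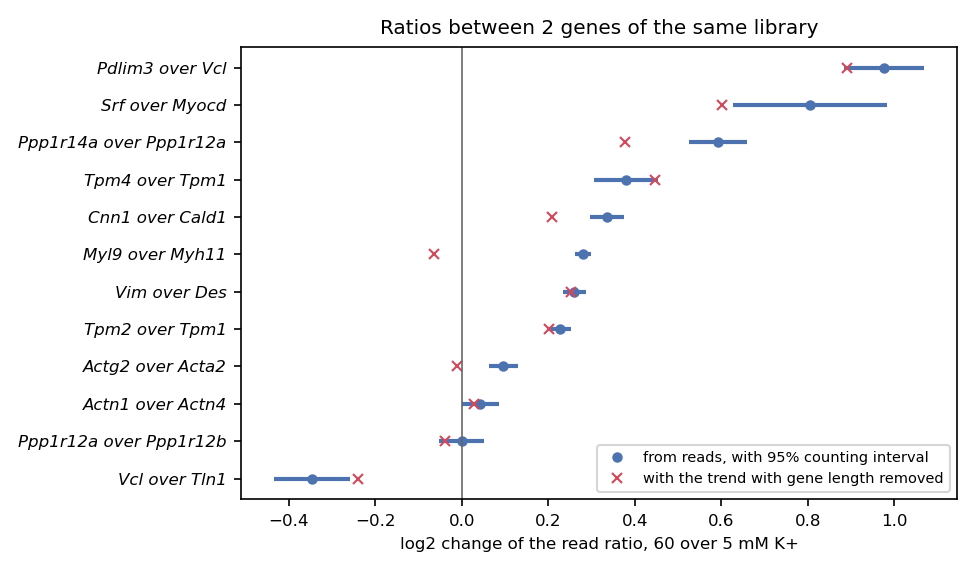
Log2 change of the read ratio between genes of the same role, depolarized over control, with circles and 95% counting intervals from the reads and crosses after the trend with gene length was removed. Pdlim3 over Vcl and Srf over Myocd had the largest increases of the 12 ratios, and the cross of Myl9 over Myh11 lies at -0.065, on the other side of 0 from its circle at 0.28.

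Shorter genes had higher log2(fold-change) than longer genes among the 34 genes, and also among genes at large. Gene length, as implied by the counts and FPKM, had a Spearman correlation of -0.70 with log2(fold-change) across the 34 genes. Across genes with at least 500 reads it was -0.32, and across all genes tested -0.18. These are correlations across genes of the same pair of libraries, and genes are not independent replicates. Of 19 genes under 2000 bases, 18 were above 0, with a median of 0.31 and Tln1 as the exception, while among all tested genes of that length 56.5% were above 0. Of 15 genes of at least 2000 bases, 5 were above 0, with a median of -0.13, and 40.2% of all such genes were above 0. With total reads, 13 of the 19 and 1 of the 15 were above 0, beside 36.8% and 24.0% of all genes of those lengths, and with the length trend removed 18 and 8 were. The implied lengths are short for some genes: they were 3242 bases for Flna and 1662 for Tln1, whose longest GENCODE vM1 transcripts have 8456 and 8393 bases. With the longest transcript as length, the correlation across the 34 genes was -0.76.

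After removal of the trend with implied length over all tested genes, a Spearman correlation of -0.42 with length remained across the 34 genes. Values with the trend removed are therefore not free of length. Myocd was then at -0.43, Vcl at -0.48, Vim at 0.50 and Tpm4 at 0.54. The direction of these 4 genes did not turn, while Myl9 went from 0.33 to 0.13, Ppp1r14a from 0.43 to 0.27 and Lmod1 from -0.16 to -0.043. Cald1, Synm and Flna changed sign, at 0.021, 0.014 and 0.031.

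**Figure D4:**
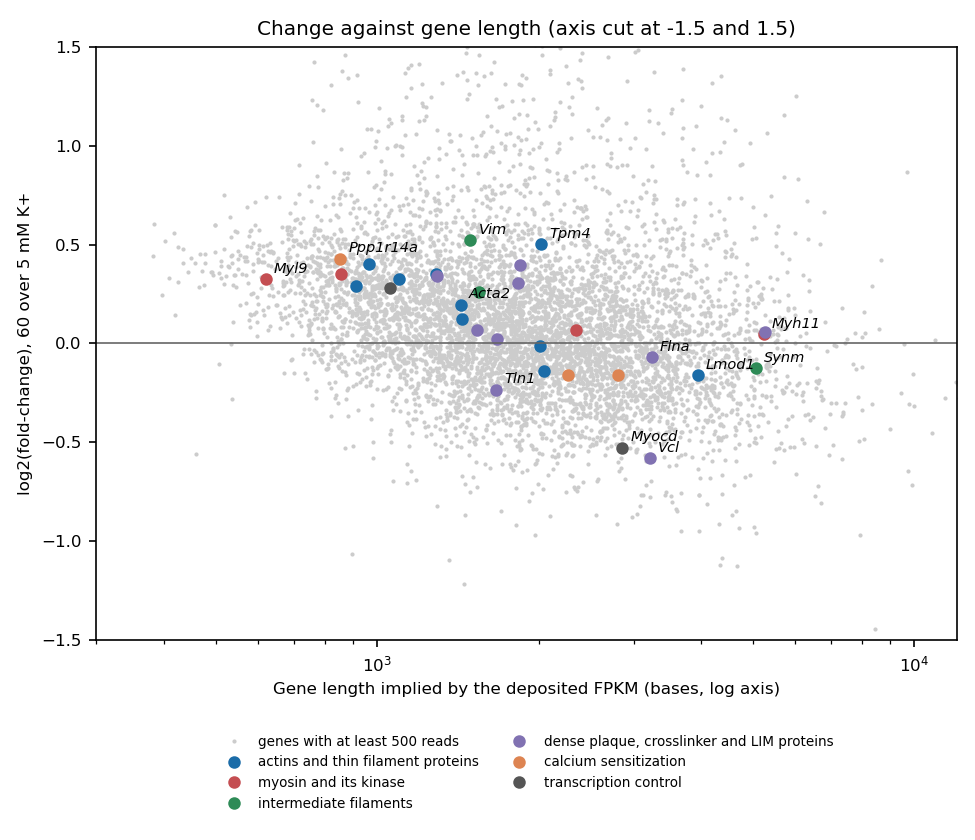
Log2(fold-change) against gene length implied by the deposited FPKM (bases, log axis), with 31 of the genes colored by role and genes with at least 500 reads in gray, and gray points beyond the ends of the vertical axis not drawn. Short genes such as Myl9 and Ppp1r14a lie above 0 and longer genes such as Lmod1, Myocd and Vcl below, in the direction of the gray points. The long genes Synpo2 and Myh11 lie just above 0, at 0.055 and 0.048.

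Other genes of the same machinery were described by lists, whose counts above 0.5 stand beside 14.8% of all genes tested and 12.4% of those with at least 500 reads. Of 23 other cytoskeletal genes, 7 lay above 0.5 and 0 below -0.5, with a median log2(fold-change) of 0.32. The highest were Pxn, the focal adhesion adaptor paxillin, at 0.97, and Tagln2, a widely expressed relative of Tagln, at 0.96. The lowest were the light-chain gene Myl12b at -0.48, with 39 and 26 reads, and the non-muscle heavy chain Myh10 at -0.34. Of 17 other contraction signaling genes, 2 lay above 0.5, among them Dapk3, a kinase of the myosin light chain, at 0.61, and 0 lay below -0.5. Their median was 0.15, or -0.056 with total reads.

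Of 15 partners of SRF and myocardin, 3 lay above 0.5 and 0 below -0.5. Smad3, which carries TGF-beta signals, was highest at 1.06, with 320 and 620 reads, followed by the transcription factor gene Gata6 at 0.78. Mef2c was lowest at -0.48, with 1771 and 1183 reads, close to the value of Myocd, and Fhl1 was next at -0.12. Of 13 integrin and dystrophin complex genes, 12 had at least 10 reads, and 2 of them, the fibronectin receptor subunit Itga5 at 0.90 and Fermt2 at 0.51, lay above 0.5. Dmd, the dystrophin gene, was lowest at -0.29, followed by Itga1 at -0.22. Of 9 early response genes with known SRF sites, 4 lay above 0.5, among them Ier2 at 1.00 and Fosb at 0.73, and Ctgf at -0.33 and Egr3 at -0.11 were lowest. Their summed level was already 11865 CPM (counts scaled to the TMM library size) in the control library and was 16080 CPM in the depolarized library.

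**Figure D5:**
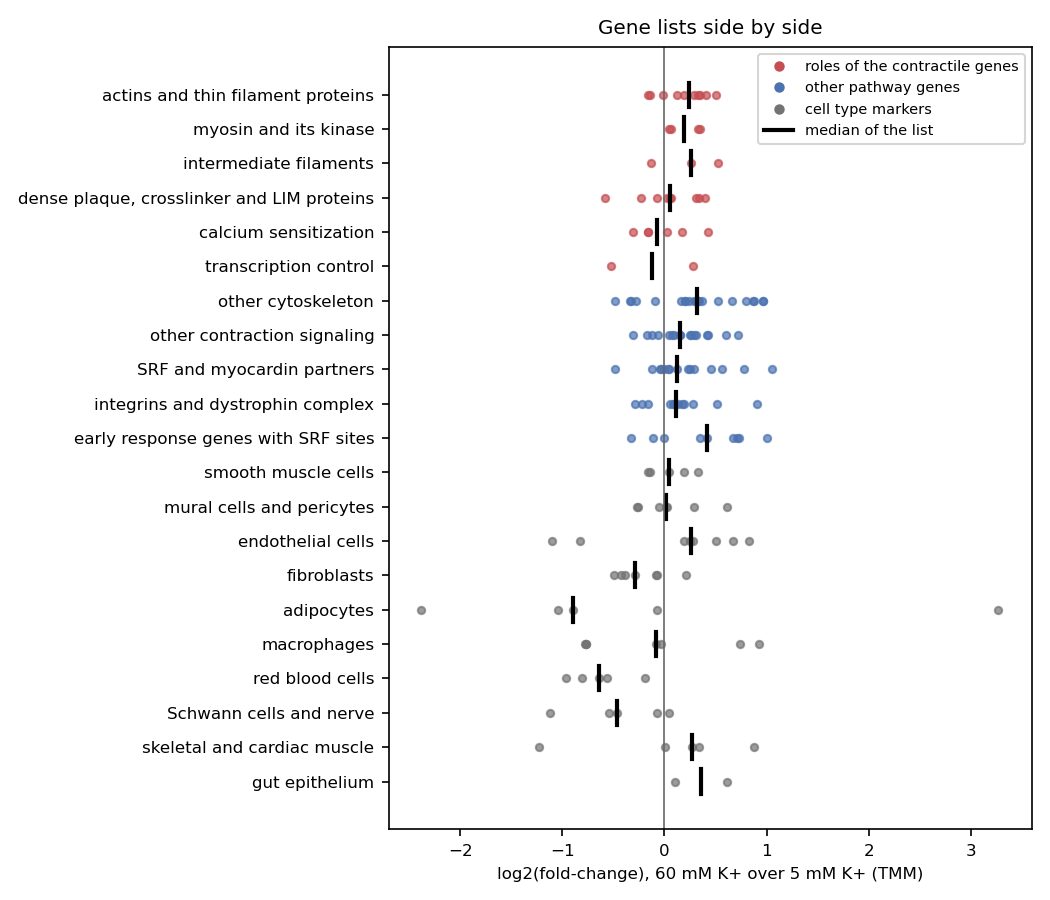
Log2(fold-change) of every gene with at least 10 reads in the 6 roles of the 34 genes, in 5 lists of other pathway genes and in cell type marker lists, with black bars for medians. The other cytoskeletal genes had a median of 0.32, fibroblast markers lay at -0.29, and pancreas markers, all above 1, are not drawn.

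Markers of other cell types also differed between the libraries. Among all genes tested, 49.6% were above 0, and among those with at least 500 reads 59.4% were. Of 8 endothelial markers, 6 were above 0, with a median of 0.26. Kdr was at -1.10, with 168 and 73 reads. Emcn was at -0.83, with only 21 and 11 reads and a counting interval that held 0 (-2.03 to 0.29). The summed level of the 8 was 3147 CPM in the control and 4278 CPM in the depolarized library. Pecam1 alone had 1730 and 2449 CPM. Of 7 fibroblast markers, 6 were below 0, with a median of -0.29 and summed levels of 7257 and 6002 CPM. The 7 mural cell and pericyte markers had a median of 0.011, with 3220 and 3153 CPM. The 5 smooth muscle markers had 33687 and 36701 CPM, mostly from Acta2 and Myh11. Their median was 0.048, with 3 of the 5 above 0. With total reads it was -0.16, with 1 of the 5 above 0, so the direction depended on the scaling. Vim is made in endothelial cells and in fibroblasts, whose summed marker levels differed in opposite directions, and their part in its value was not tested. The 7 macrophage markers summed to 34.1 and 29.9 CPM, the 5 red blood cell markers to 80.6 and 51.2 CPM and the 6 Schwann cell and nerve markers to 110 and 101 CPM, with Th at 0 reads in both libraries. Of 5 adipocyte markers with at least 10 reads, 4 were below 0, with a median of -0.90. Plin1 was at -2.39 (101 and 18 reads), Adipoq at -1.04 (97 and 44 reads) and Cidec at -0.90 (146 and 73 reads). Lep was on the other side, at 3.27, with only 1 and 9 reads. The summed 696 and 647 CPM were mostly Plin4, with 665 and 633 CPM. Of the 4 mesothelial markers, 3 had 0 reads in both libraries, and the 4 lymphocyte markers had 6 and 8 reads. The 4 markers of gut epithelium had 29 reads in each library, and 6 pancreas markers had 38 reads in the control and 304 in the depolarized library. Skeletal and cardiac muscle markers had 579 and 518 reads, with Myh4 and Myh7 at 0 in both, and most of those reads were on Acta1, an actin gene close in sequence to Acta2.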

How the data were processed

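RNA-seq was performed by the authors on mesenteric arteries in 5 mM K+ and 60 mM K+, with 1 library a condition. The paper's methods state that reads were aligned to mm9 with TopHat2. The submitters' processing notes name another mouse genome build beside mm9, and TopHat2 2.0.12, HTSeq 0.6.1 and edgeR 3.0.8. Neither the annotation nor the strand setting is given in the sources used here. The shared exon bases taken from GENCODE vM1 may therefore differ from those in the annotation used for counting. The authors deposited read counts per gene without normalization, and FPKM values scaled by total reads. Symbols and positions came from GENCODE vM1 (NCBIM37, mm9), which names 32601 of 55573 listed genes, with 99.1% of the reads. TMM factors were 1.07 for the control and 0.930 for the depolarized library (edgeR 4.0.16, R 4.3.3).

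Log2(fold-change) was computed from TMM-scaled counts, with a 0 entered as 0.5 reads, and intervals were exact 95% Clopper-Pearson intervals. They cover counting error only, since there was 1 library a condition. They also treat reads as independent, and PCR reads are not independent molecules, so they may be too narrow even for counting error. Intervals of read ratios used the normal approximation of the log odds. Without replicates, edgeR's quasi-likelihood test could not be fitted. The length trend was a lowess curve (statsmodels 0.14.6, span 0.3). The calculations were tested on simulated counts. There the length trend was fitted to genes with at least 500 reads and simulated lengths, not to all tested genes with their own lengths. All genes were to be named, with at most the 2 highest and 2 lowest genes of the other pathway lists. Of the 34 genes, 3 are not reported one by one here, but stay in the counts and medians, and some genes of the other lists are not named. The genes and lists were chosen with earlier results of these data known. Alternatives were scaling by total counts, upper quartile and median of ratios (DESeq2 1.42.0), other minimum counts, FPKM with pseudocounts of 0.1 and 1, and removal of the length trend. The imaging, qPCR and protein experiments were not analysed here.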

Additional observations from a re-analysis of the deposited data

How the results depend on the processing

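No paired analysis was possible because there was a single library of arteries at each K+ concentration. Without replicates, these settings show how scaling, length and counting move the values, not how far animals differ. Minimum counts had no effect, since all 34 genes passed each of them.

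Total-read scaling lowered the median of the 34 genes from 0.094 to -0.11, and the medians were then 0.035 for thin filament, -0.013 for myosin, 0.052 for intermediate filament, -0.15 for dense plaque, -0.28 for Ca2+ sensitization and -0.33 for transcription control genes. Above 0.5 were 0 genes and below -0.5 were 3, and counting intervals lay above 0 for 12 and below 0 for 19. FPKM with a pseudocount of 0.1 or 1 gave the same medians to 2 digits, except -0.32 for transcription control with a pseudocount of 1, with 0 genes above 0.5 and 3 below -0.5. With the upper quartile, medians were 0.051 for the 34 genes, 0.15 for myosin and 0.22 for intermediate filaments, with 0 genes above 0.5, and with the median of ratios 1 gene was above 0.5. With the trend with implied length removed, medians were 0.15 for the 34 genes, 0.16 for thin filament, 0.16 for myosin and 0.047 for Ca2+ sensitization genes, with 1 gene above 0.5 and 0 below -0.5. With the longest transcript as length, a setting added after the data were seen, they were 0.14, 0.14, 0.17 and 0.066, and 0.10 for dense plaque genes, with 0 genes on either side. Without the 7 genes that share exon bases with another gene, also added later, the median was 0.12, with 1 gene above 0.5 and 1 below -0.5.

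Of 34 single values, 9 changed sign with total reads or FPKM, 2 with the upper quartile, 0 with the median of ratios, 3 with the length trend removed and 4 with the longest transcript. The values of Vcl, Myocd, Vim and Tpm4 kept their sign in all of these, as did those of other genes such as Myl9 and Ppp1r14a. These 4 lay furthest from 0, and total-read scaling, the largest shift, lowered every value by only 0.21. Their sign could therefore not turn with the scaling.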
